A study of Homo sapiens with 9 samples.

Results

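The interferon regulatory factors are a family of transcription factors that share a DNA-binding domain reading the GAAA-type sequences of interferon-responsive genes. The count table was searched for 8 genes of the family by symbol, IRF1, IRF2, IRF3, IRF4, IRF5, IRF7, IRF8 and IRF9, and all 8 were found among its 58735 genes. All 8 also passed the filter on low counts, which kept 18195 genes for testing.

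The RNA came from HEK293A, an adherent derivative of HEK293, itself a line from human embryonic kidney, and the cells carried a knockout of RELA, which encodes p65. The knockout cells received a plasmid for p65 2CS, a plasmid for p65 WT or the vector, and 24 h later all 3 groups were given TNFα at 20 ng/mL for 2 h. Each group has 3 libraries, numbered 7 to 9 for p65 2CS, 4 to 6 for p65 WT and 1 to 3 for vector, and all carry the knockout and the cytokine, so the response to TNFα itself was not measured. The meaning of 2CS is not given in the labels; the series title concerns p65 palmitoylation. Nor is it stated whether replicate libraries were grown as separate cultures or whether the knockout line is a single clone, so p-values reflect only how these libraries vary, possibly for technical reasons.

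The family falls into functional pairs and groups. IRF3, IRF5 and IRF7 sit latent in the cytoplasm until they are phosphorylated, after which they switch on interferon genes. For IRF3 and IRF7 the kinases include TBK1 and IKKε. IRF1 is made on demand after cytokine signals and activates antigen-presentation and guanylate-binding-protein genes, and IRF2 binds the same sites and is best known as its antagonist. IRF9 is the DNA-binding subunit of the ISGF3 complex downstream of interferon receptors, while IRF4 and IRF8 are factors of lymphoid and myeloid cells. NF-κB dimers that hold p65 are activated by TNF, and IRF1 is a textbook NF-κB target gene.

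The p65 transcript was read first as a check of the labels. RELA had 25747, 26771 and 24036 CPM (counts scaled to library size) in the p65 2CS libraries, 9048, 8037 and 9922 CPM in the p65 WT libraries and 68.1, 69.0 and 65.9 CPM in the vector libraries. The order of the groups was p65 2CS above p65 WT above vector with no overlap, and the p65 2CS libraries held 2.83 times the mean RELA level of the p65 WT libraries. The vector libraries still held 1192 to 1410 RELA counts each, so the RNA shows the plasmids and does not by itself show the knockout. Counts cannot tell plasmid transcripts from those of the chromosomal gene. Every difference between p65 2CS and p65 WT below therefore comes with this difference in RELA level, and its part in them was not tested.

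Libraries held 17146134 to 25068515 counts in the p65 2CS group, 15989601 to 16507689 in p65 WT and 17923114 to 20162267 in vector. Markers of epithelial and HEK293-type cells (KRT8, NEFL, KRT18, CDH2, LHX1, PAX2 and EPCAM) summed to 1876 to 1942 CPM in p65 2CS, 2000 to 2063 CPM in p65 WT and 2132 to 2145 CPM in vector. In the same order, KRT8 averaged 829, 923 and 942 CPM and NEFL 824, 842 and 899 CPM. LHX1 averaged 6.68, 6.26 and 7.64 CPM and PAX2 1.75, 1.78 and 1.91 CPM. EPCAM had 24, 9 and 14 counts and did not pass the filter. Of these markers 6 were tested. In p65 2CS 4 were lower than in vector, from log2 -0.22 (CDH2) to -0.13 (NEFL), where 11.4% of all genes were called lower. In p65 WT 3 were lower than in vector, from -0.21 (CDH2) to -0.08 (KRT18), where 12.5% of all genes were called lower. In both comparisons 0 were higher. Of leukocyte markers, which matter here because IRF4 and IRF8 belong to blood cells, PTPRC (CD45) had 1, 0 and 0 counts in the p65 2CS, p65 WT and vector groups, and CD3E had 1, 1 and 0. The 9 leukocyte markers summed to 6.64 to 7.11 CPM in p65 2CS, 6.59 to 7.48 CPM in p65 WT and 5.14 to 5.66 CPM in vector. ITGAM, an integrin chain, was the 1 of 4 tested that was called, higher in both p65 groups than in vector. Of all genes, 12.1% were called higher than vector in p65 2CS and 16.4% in p65 WT. Endothelial markers summed to 11.1 to 13.5 CPM in p65 2CS, 34.5 to 40.2 CPM in p65 WT and 8.06 to 8.66 CPM in vector. VWF and CDH5 were higher in both p65 groups than in vector. KDR averaged 0.650, 0.832 and 0.933 CPM in p65 2CS, p65 WT and vector, with no call against vector, and PECAM1 had 1, 3 and 7 counts. Fibroblast markers summed to 48.9 to 52.0 CPM, 56.6 to 59.6 CPM and 48.6 to 53.7 CPM in the same order. The part of these markers in the results below was not tested.

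Promoter windows of 250 bases before to 50 bases after a transcript start, from RefSeq on build GRCh38.p14, were at hand for 5 of the 8 genes (IRF1, IRF4, IRF5, IRF8 and IRF9). The windows of IRF1, IRF8 and IRF4 are shown, because IRF1 and IRF8 had the largest called folds of the family and IRF4 had no called difference. Capitals mark matches to the κB consensus of 10 bases, the sequence that NF-κB dimers bind, and to the GAS element TTCNNNGAA, found at genes that respond to interferon-γ. Both strands were searched, also for the ISRE core read by the family itself, GAAA, any 2 bases and GAAA again.
IRF1, chr5:132490724-132491023, minus strand: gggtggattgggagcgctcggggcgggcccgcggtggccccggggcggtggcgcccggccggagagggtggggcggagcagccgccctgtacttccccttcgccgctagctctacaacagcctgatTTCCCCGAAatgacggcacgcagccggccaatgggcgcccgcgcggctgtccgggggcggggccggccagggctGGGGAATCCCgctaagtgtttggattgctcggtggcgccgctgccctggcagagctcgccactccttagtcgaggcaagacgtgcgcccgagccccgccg
IRF8, chr16:85902580-85902879, plus strand: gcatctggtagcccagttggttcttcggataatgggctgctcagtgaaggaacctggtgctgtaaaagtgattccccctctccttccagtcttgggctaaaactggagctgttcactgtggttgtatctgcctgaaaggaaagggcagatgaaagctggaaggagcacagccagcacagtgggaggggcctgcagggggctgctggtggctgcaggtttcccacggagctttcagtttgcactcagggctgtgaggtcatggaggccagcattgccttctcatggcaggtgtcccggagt
IRF4, chr6:391502-391801, plus strand: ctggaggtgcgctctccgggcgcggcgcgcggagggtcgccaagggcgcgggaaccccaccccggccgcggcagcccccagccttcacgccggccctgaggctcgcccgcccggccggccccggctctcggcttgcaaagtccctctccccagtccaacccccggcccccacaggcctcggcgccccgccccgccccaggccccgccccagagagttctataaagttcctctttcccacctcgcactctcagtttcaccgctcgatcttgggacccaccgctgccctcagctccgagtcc
The IRF1 window holds the κB consensus as GGGGAATCCC from 50 to 41 bases before the start and the GAS element as TTCCCCGAA from 124 to 116 bases before it, and these matches do not overlap. The windows of IRF4, IRF5 and IRF8 hold none of the 3 motifs, and that of IRF9 holds a GAS element, TTCTGGGAA, from 63 to 55 bases before the start. Of all 35116 windows in the table, 5.91% hold the κB consensus, 7.66% the GAS element and 3.57% the ISRE core. A match is a run of letters, not a shown binding site. The transcript start of the IRF8 window printed lies 4027 bases inside the gene as the count table annotates it, so that window is not the region before the annotated gene start. The other IRF8 window starts its transcript 4212 bases inside, and those of IRF5 do so 315, 605, 3058 and 3656 bases inside. For IRF5 and IRF8 the region before the annotated gene start was therefore not searched. The transcript start of the IRF9 window lies 212 bases inside its gene.

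IRF1 was higher in both p65 groups than in vector, and lower with p65 2CS than with p65 WT. The gene lies on chromosome 5 (GRCh38, chr5:132481609-132490798, minus strand; ENSG00000125347). It had 30.7, 30.5 and 31.1 CPM in the p65 2CS libraries, 59.4, 58.9 and 57.5 CPM in p65 WT and 15.6, 15.0 and 13.2 CPM in vector. No library of a group came near those of another, and the p65 2CS values sat between the other groups. On the log2 scale IRF1 was 1.08 ± 0.07 higher in p65 2CS than in vector (fitted difference ± SE, n = 3 libraries each; adjusted p = 1.6e-15, edgeR's quasi-likelihood test with Benjamini-Hochberg adjustment, as for all adjusted p below). With p65 WT it was 2.00 ± 0.07 above vector (adjusted p = 3.0e-26), a ratio of means of 4.02. In the direct comparison of the p65 forms it was lower in p65 2CS by a log2 fold of -0.93 ± 0.06 (adjusted p = 2.7e-16), so the p65 WT mean was 1.90 times that of p65 2CS.

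IRF8, a factor that drives monocyte and dendritic cell development, showed the same order at a far lower level. The gene lies at chr16:85898803-85922609 on the plus strand (GRCh38; ENSG00000140968). It had 0.756, 1.79 and 1.11 CPM in p65 2CS libraries, 5.11, 3.55 and 5.19 CPM in p65 WT and 0.374, 0.392 and 0.166 CPM in vector. These rest on 13, 45 and 21 counts in p65 2CS, 81, 56 and 84 in p65 WT and 7, 8 and 3 in vector. The groups did not overlap, although the p65 2CS libraries varied among themselves more than for IRF1. The log2 fold was 1.98 ± 0.40 for p65 2CS against vector (adjusted p = 2.0e-04) and 3.85 ± 0.34 for p65 WT against vector (adjusted p = 1.8e-12). Against p65 WT, p65 2CS was lower by a log2 fold of -1.87 ± 0.26 (adjusted p = 2.8e-07). In a bulk sample, fewer cells that express a gene and less RNA per cell cannot be told apart.

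IRF2 and IRF7 also rose with both p65 forms over vector, and their levels with p65 2CS and p65 WT overlapped. IRF7, the latent factor that amplifies type I interferon production (chr11:612553-615999, minus strand), had 18.4, 22.7 and 21.3 CPM in p65 2CS, 20.4, 19.8 and 18.0 CPM in p65 WT and 11.0, 13.0 and 11.5 CPM in vector. All 6 libraries with p65 lay above the 3 vector libraries, by log2 0.82 ± 0.09 for p65 2CS (adjusted p = 3.1e-09) and 0.71 ± 0.09 for p65 WT (adjusted p = 6.0e-08). Between p65 2CS and p65 WT the log2 fold was 0.11, with a 95% interval from -0.06 to 0.29 (adjusted p = 0.36). IRF2, the counterpart of IRF1 (chr4:184387713-184474580, minus strand), had 8.03, 6.36 and 7.38 CPM in p65 2CS, 7.26, 6.21 and 7.67 CPM in p65 WT and 3.52, 4.26 and 4.15 CPM in vector. It was above vector by log2 0.86 ± 0.15 with p65 2CS (adjusted p = 3.0e-05) and 0.82 ± 0.15 with p65 WT (adjusted p = 4.2e-05). The difference between the p65 forms was 0.03 on the log2 scale, with an interval from -0.26 to 0.32 (adjusted p = 0.90). For both genes these intervals leave out a drop with p65 2CS of the size seen for IRF1.

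IRF3 was higher with p65 WT than with p65 2CS or vector, by a small margin. IRF3 is the widely expressed sensor-side factor whose activity is set mainly by phosphorylation (chr19:49659569-49665875, minus strand). It had 52.7, 48.8 and 48.0 CPM in p65 2CS, 59.9, 69.2 and 71.8 CPM in p65 WT and 53.3, 50.9 and 53.1 CPM in vector. The p65 2CS and vector libraries overlapped, and every p65 WT library was above them. Against vector the log2 fold was -0.07 ± 0.06 for p65 2CS (adjusted p = 0.38) and 0.36 ± 0.06 for p65 WT (adjusted p = 2.2e-06), and p65 2CS was below p65 WT by -0.43 ± 0.06 (adjusted p = 5.4e-08).  Part of IRF3 lies under BCL2L12 on the opposite strand, with 734 of its 3794 exon bases (19.3%) shared. BCL2L12 averaged 66.9 CPM in p65 2CS, 73.7 CPM in p65 WT and 63.8 CPM in vector, and was itself called higher in p65 WT than in vector (log2 0.21, adjusted p = 8.5e-04) and lower in p65 2CS than in p65 WT (-0.14, adjusted p = 0.023). The call between p65 2CS and p65 WT was lost without p65 2CS replicate 7 (-0.14) or 8 (-0.11) or p65 WT replicate 6 (-0.12). The labels do not settle whether reads were counted by strand, so reads of the shared bases could belong to either gene, and the part of BCL2L12 in the IRF3 difference was not tested.

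IRF5, IRF9 and IRF4 gave no called difference in any comparison. IRF5, a latent factor downstream of Toll-like receptors (chr7:128937612-128950035, plus strand), had 3.08, 3.38 and 3.74 CPM in p65 2CS, 4.61, 2.34 and 3.59 CPM in p65 WT and 2.61, 2.89 and 2.21 CPM in vector. The p65 WT libraries spread over the range of both other groups, and without p65 WT replicate 5 the difference of p65 WT from vector was called (log2 0.66, adjusted p = 0.021) where with it the log2 fold was 0.45 ± 0.22 (adjusted p = 0.13). IRF9, the DNA-binding subunit of ISGF3 (chr14:24161053-24166565, plus strand), had 0.989, 0.835 and 1.00 CPM in p65 2CS, 1.01, 1.08 and 1.48 CPM in p65 WT and 0.534, 0.832 and 0.774 CPM in vector. Its groups did not overlap in any comparison, but they nearly touched and none passed the test, with adjusted p = 0.51 and 0.14 against vector for p65 2CS and p65 WT and 0.49 between them. The whole of IRF9 lies within AL136295.5, a gene on the same strand that shares 1838 of its 3794 exon bases (48.4%), so the level of IRF9 is uncertain. The principal annotated transcript of IRF9 is also 1838 bases long, and whether these are the same bases was not checked. AL136295.5 averaged 0.311 CPM in p65 2CS, 0.294 CPM in p65 WT and 0.575 CPM in vector and did not pass the filter. Its part in the IRF9 values was not tested. IRF4, a factor of B and plasma cells (chr6:391739-411447, plus strand), had 0.407, 0.715 and 0.632 CPM in p65 2CS, 0.379, 0.507 and 0.124 CPM in p65 WT and 0.427, 0.196 and 0.884 CPM in vector. All 3 groups overlapped at between 2 and 18 counts a library, a depth at which the interval for p65 2CS against vector ran from -0.73 to 1.28 on the log2 scale.

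**Figure D1:**
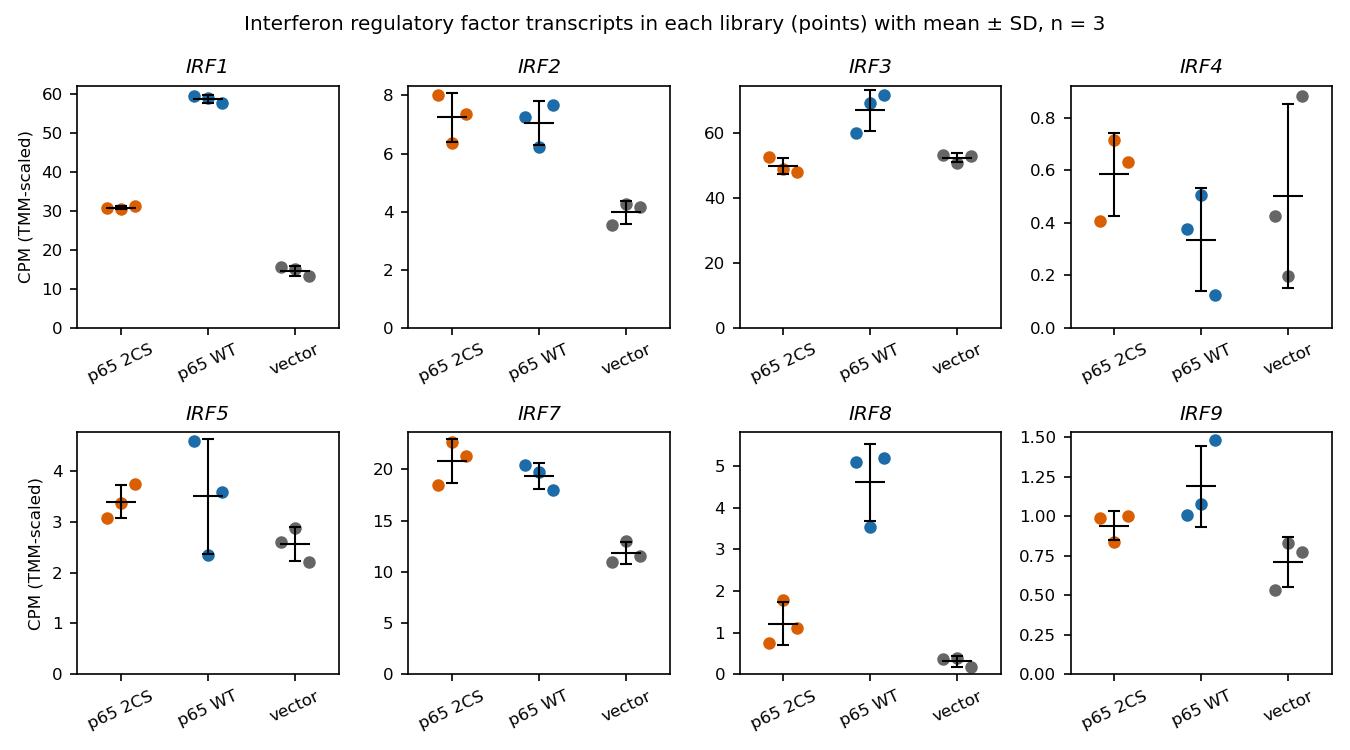
CPM of each of the 8 genes in each library (points) by group, p65 2CS left, p65 WT middle, vector right, with the group mean and SD (bars, n = 3) on linear axes that start at 0. IRF1 and IRF8 stand highest in p65 WT with p65 2CS between, IRF2 and IRF7 are raised alike in both p65 groups, and IRF3 is raised in p65 WT.

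Counted over the family, 4 of 8 genes were called in p65 2CS against vector, all higher, against 23.4% of all 18195 genes tested called and 12.1% called higher. With p65 WT against vector 5 of 8 were called, all higher, where 28.8% of all genes were called and 16.4% were called higher. Between p65 2CS and p65 WT, 3 of 8 were called, all lower in p65 2CS (IRF1, IRF3 and IRF8), where 31.2% of all genes were called and 17.9% were called lower; 3 of 8 is near that background. The median log2 fold of the 8 genes was 0.61, 0.72 and -0.20 in these comparisons, beside medians of 0.00, -0.02 and 0.00 over all genes. IRF1 and IRF8 were called with a doubling or more against vector in both p65 groups, where 2.36% of all genes were for p65 2CS and 6.58% for p65 WT. Between p65 2CS and p65 WT, IRF8 was called with a change of that size, as were 5.36% of all genes. The split over all genes depended on scaling. In p65 WT against vector 2976 were called higher and 2268 lower, but 2561 higher and 3642 lower on library totals and 2656 and 3213 on totals without RELA. In p65 2CS against p65 WT 2431 were higher and 3254 lower, but 3790 and 2532 on totals without RELA. The IRF counts of 4, 5 and 3, with their directions, were the same on each of these scalings. Ranges of the 3 libraries did not overlap for 6, 6 and 4 of the 8 genes, which include genes not called, such as IRF9. The share of all genes with separate ranges was not computed, so these counts have no background to be read against. The 3 comparisons share libraries, so their values stand side by side and are not independent of each other. With 3 libraries against 3, an exact permutation test of a single gene cannot give a two-sided p below 0.1. Separate ranges always give that value, so the exact test adds nothing to them.

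**Figure D2:**
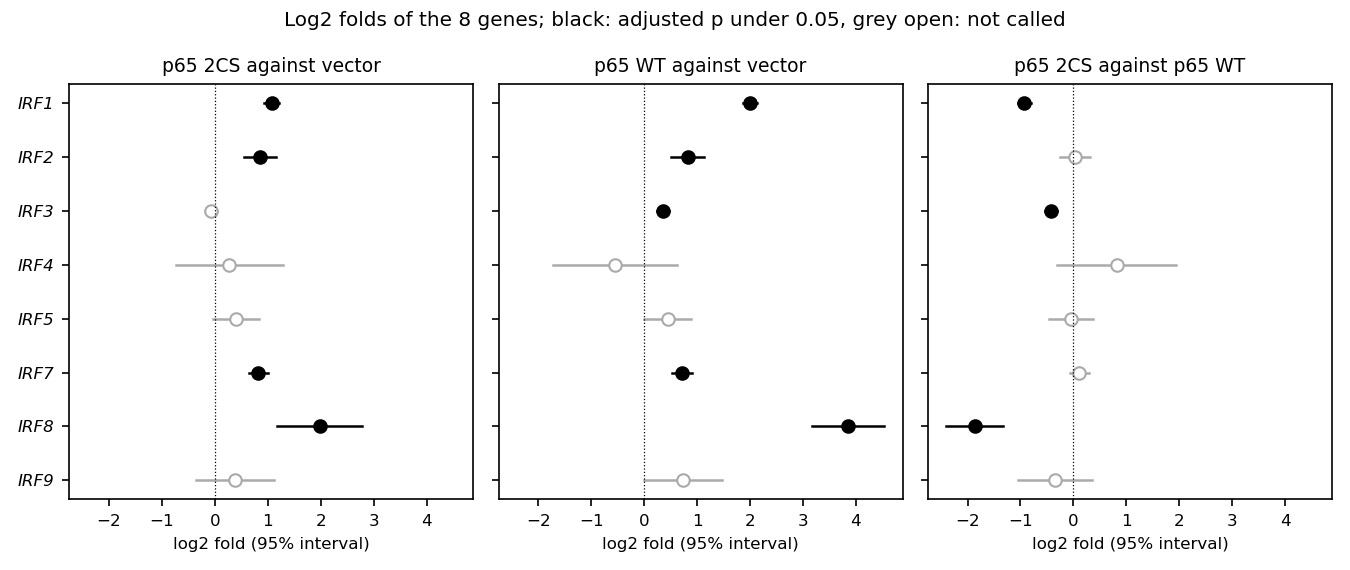
Log2 fold of each gene (points) with its 95% interval (lines) in the 3 comparisons, black where the adjusted p was under 0.05 and grey where not. The called folds against vector all lie right of 0 and run up to 3.85 for IRF8 with p65 WT; those between p65 2CS and p65 WT lie left of 0, at -1.87 for IRF8, -0.93 for IRF1 and -0.43 for IRF3.

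The order of the family's levels was read per length, as CPM per kb of the exon length in the count table. In p65 2CS libraries IRF3 stood highest at 13.1 CPM per kb, followed by IRF7 at 7.93, IRF1 at 3.95, IRF2 at 2.33, IRF5 at 0.777, IRF9 at 0.248, IRF8 at 0.236 and IRF4 at 0.0992. IRF9 and IRF8 could not be ordered there, since their libraries overlapped. In p65 WT libraries IRF3 was at 17.7 CPM per kb, IRF1 at 7.52, IRF7 at 7.38, IRF2 at 2.26, IRF8 at 0.894, IRF5 at 0.803, IRF9 at 0.314 and IRF4 at 0.0570. The pairs IRF1 and IRF7, and IRF8 and IRF5, overlapped there. In vector libraries IRF3 was at 13.8 CPM per kb, IRF7 at 4.50, IRF1 at 1.87, IRF2 at 1.28, IRF5 at 0.588, IRF9 at 0.188, IRF4 at 0.0852 and IRF8 at 0.0601, and the libraries of IRF4 overlapped those of IRF8 and of IRF9. So IRF1 was level with IRF7 in p65 WT and below it in p65 2CS and vector, and IRF8 was level with IRF5 in p65 WT and among the lowest in vector. The place of IRF9 is uncertain in each group, because it shares exon bases with AL136295.5.

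These levels depend on which length is used, because the exon length joins all annotated transcripts of a gene. With the length of the principal transcript, a choice made after seeing the data, IRF1 came to 8.60 CPM per kb in p65 2CS, 16.4 in p65 WT and 4.08 in vector, and IRF7 to 10.2, 9.46 and 5.77. On that scale IRF1 was above IRF7 in p65 WT, and still below it in p65 2CS and vector. IRF3 was highest in each group on either length.

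Summed per length, the 8 genes came to 28.7 ± 0.18 CPM per kb in p65 2CS, 36.9 ± 0.97 in p65 WT and 22.4 ± 0.22 in vector (SD, n = 3 each), with no overlap of libraries. IRF3 made up 45.8 ± 2.4% of that sum in p65 2CS, 47.8 ± 3.3% in p65 WT and 61.7 ± 2.2% in vector. The share of IRF1 was 13.8 ± 0.22%, 20.4 ± 0.87% and 8.36 ± 0.73% in the same groups, and that of IRF7 was 27.6 ± 2.8%, 20.0 ± 1.8% and 20.1 ± 1.6%. The ratio of IRF1 to its antagonist IRF2, per length, was 1.71 ± 0.20 in p65 2CS, 3.35 ± 0.40 in p65 WT and 1.48 ± 0.26 in vector. The p65 WT libraries stood apart in this ratio, and those of p65 2CS overlapped vector. With principal transcript lengths the ratio was 2.76 ± 0.32 in p65 2CS, 5.40 ± 0.65 in p65 WT and 2.39 ± 0.42 in vector.

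**Figure D3:**
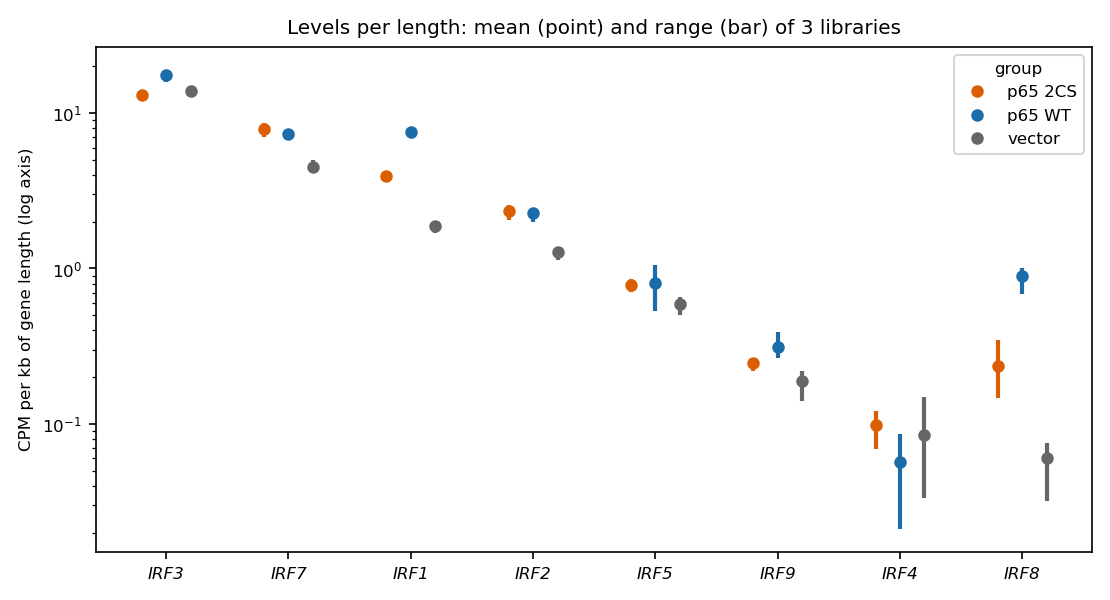
Level of each gene in CPM per kb of exon length on a log axis, mean (point) and range (bar) of the 3 libraries, with p65 2CS left, p65 WT middle and vector right for each gene. IRF3 is highest in each group, and IRF8 spans the widest distance between groups, 0.236 in p65 2CS, 0.894 in p65 WT and 0.0601 in vector.

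None of the 3 tested genes around IRF1 (SLC22A5, RAD50 and C5orf56) had its order of groups. Within 100 kb, SLC22A5, a carnitine transporter, averaged 38.2 CPM in p65 2CS, 39.7 CPM in p65 WT and 42.7 CPM in vector, a log2 fold of -0.16 for p65 2CS against vector (adjusted p = 0.048) and no call for p65 WT (adjusted p = 0.22). That call was lost without p65 2CS replicate 8 (-0.16) or 9 (-0.12), p65 WT replicate 4 (-0.16) or any vector library (-0.16 to -0.17). RAD50, a DNA repair gene, averaged 15.3 CPM in p65 2CS, 12.4 CPM in p65 WT and 12.5 CPM in vector, called higher in p65 2CS than in p65 WT (log2 0.31, adjusted p = 0.020), the opposite side to IRF1; the call was lost without p65 2CS replicate 7 (0.29), p65 2CS replicate 8 (0.21) or p65 WT replicate 5 (0.22). C5orf56, on the strand opposite IRF1 and sharing 1716 of its 7799 exon bases (22.0%), averaged 1.33, 1.51 and 1.57 CPM in p65 2CS, p65 WT and vector, with adjusted p of 0.59, 0.91 and 0.68 in the 3 comparisons. Reads of these shared bases cannot be given to a strand here either, and their part in the IRF1 values was not tested. Other neighbours did not pass the filter, and the means of 3 of them, at few counts, ran in the order of IRF1. Those of RF00019 (0, 5 and 4 counts in p65 2CS, p65 WT and vector) and IL5 (3, 0 and 0) did not. AC116366.3, which spans IRF1 on the opposite strand and shares 469 of its exon bases, averaged 0.287 CPM in p65 2CS, 0.565 CPM in p65 WT and 0.263 CPM in vector (19, 27 and 15 counts). AC116366.1 had 0.406, 0.479 and 0.233 CPM (27, 23 and 13 counts) in the same groups. AC116366.2 had 0.177, 0.188 and 0.0688 CPM there (11, 9 and 4 counts).

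The genes most like IRF1 over the 9 libraries, by the root mean square difference of log2 CPM after subtracting each gene's vector mean, were TTC30B (0.106), TNS1 (0.133), CSF1 (0.137) and LAMB3 (0.150), out of 16493 candidates with a median of 1.34. CSF1, the macrophage growth factor, averaged 37.3 CPM in p65 2CS, 65.8 CPM in p65 WT and 18.2 CPM in vector. LAMB3, a laminin chain, averaged 19.1, 30.5 and 8.19 CPM in the same groups, and TNS1, a focal adhesion protein, 29.1, 63.2 and 14.4 CPM. Most like IRF8 were TCHH (0.224), COL2A1 (0.342), KCNJ9 (0.358) and FAM167A (0.384), beside a median of 2.30. FAM167A averaged 9.22 CPM in p65 2CS, 33.5 CPM in p65 WT and 2.71 CPM in vector, and COL2A1, the cartilage collagen, 1.92, 7.69 and 0.551 CPM.

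Lists of genes that act with the family were read next, 120 genes in all, of which 85 passed the filter. Of these 27 were called in p65 2CS against vector (21 higher and 6 lower, 31.8%), 35 in p65 WT against vector (28 higher and 7 lower, 41.2%) and 34 in p65 2CS against p65 WT (12 higher and 22 lower, 40%). The background over all genes was 23.4%, 28.8% and 31.2%. Scaling moved the pathway splits too: p65 WT against vector gave 26 higher and 13 lower on library totals, and p65 2CS against p65 WT gave 20 and 20 on totals without RELA.

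Of 18 tested genes that sense nucleic acids or activate the latent factors, 8 were higher and 0 lower in p65 2CS than in vector, and 7 were higher and 1 lower in p65 WT than in vector. The medians were 0.17 and 0.13 on the log2 scale. Between p65 2CS and p65 WT, 3 were higher and 3 lower, with a median of 0.08. Of all genes, 23.4%, 28.8% and 31.2% were called in these comparisons. The list was near its share between p65 2CS and p65 WT. IKBKE, which encodes the inducible kinase IKKε, averaged 7.98 ± 1.6 CPM in p65 2CS, 28.5 ± 3.2 CPM in p65 WT and 3.99 ± 0.33 CPM in vector (SD, n = 3 each). It was above vector by log2 0.99 ± 0.14 with p65 2CS (adjusted p = 9.5e-07) and 2.84 ± 0.12 with p65 WT (adjusted p = 3.3e-22), and p65 2CS was below p65 WT by -1.85 ± 0.11 (adjusted p = 2.0e-17). Its constitutive relative TBK1 averaged 36.1, 34.3 and 34.2 CPM in p65 2CS, p65 WT and vector, with no call.

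IFIH1 and DDX58, sensors of viral RNA, were called in opposite directions between the p65 forms. IFIH1 (MDA5) averaged 8.83, 15.0 and 4.75 CPM in p65 2CS, p65 WT and vector and was lower with p65 2CS than with p65 WT (log2 -0.76 ± 0.12, adjusted p = 1.2e-06). DDX58 (RIG-I) averaged 13.8, 8.78 and 6.32 CPM and was higher with p65 2CS than with p65 WT (0.64 ± 0.12, adjusted p = 2.1e-05). TICAM1, the adaptor TRIF of Toll-like receptor 3, was raised with both, at 29.6 CPM in p65 2CS, 27.0 CPM in p65 WT and 17.0 CPM in vector (log2 0.80 and 0.67 over vector). TANK, a scaffold of TBK1 and IKKε, averaged 16.7, 21.1 and 12.6 CPM in p65 2CS, p65 WT and vector.

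Of 11 tested partners, 1 was higher and 2 were lower in p65 2CS than in vector (median 0.02), 2 were higher and 4 lower in p65 WT than in vector (median -0.08), and 4 were higher and 1 lower in p65 2CS than in p65 WT (median -0.03). The shares of all genes called were 23.4%, 28.8% and 31.2% in that order. Partners were near that share in p65 2CS against vector. BATF, an AP-1 factor that pairs with IRF4 and IRF8 on DNA, had 4 counts over the p65 2CS libraries, 286 over p65 WT and 0 over vector. Against the floor of 3 counts over the vector group, BATF was at least 114-fold higher in p65 WT; floors cover counting error only. Between p65 2CS and p65 WT its log2 fold was -6.38 ± 0.42 (adjusted p = 1.1e-15). SPI1 (PU.1), another partner of IRF4 and IRF8, averaged 0.276, 0.753 and 0.331 CPM in p65 2CS, p65 WT and vector and did not pass the filter. STAT2, a subunit of ISGF3, averaged 46.7, 47.7 and 47.8 CPM in p65 2CS, p65 WT and vector, with no call in any comparison. IRF2BP2, a corepressor named for its binding to IRF2, was lower in p65 WT than in vector (169 and 225 CPM, log2 -0.41 ± 0.03, adjusted p = 1.3e-13) and higher in p65 2CS than in p65 WT (0.30 ± 0.03, adjusted p = 8.1e-10). CREBBP, a coactivator that latent factors bind once phosphorylated, was higher in p65 2CS, at 371 CPM, than in p65 WT, at 316 CPM (0.23 ± 0.03, adjusted p = 5.3e-08).

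Interferon genes themselves were scarcely read. The 21 genes for type I, type II and type III interferons summed to 22 counts over the p65 2CS libraries, 12 over p65 WT and 11 over vector, and none passed the filter. IFNB1, the interferon that IRF3 and NF-κB switch on together, had 3, 0 and 0 counts in these groups. The 3-count floors of the groups were 0.0489 CPM in p65 2CS, 0.0627 CPM in p65 WT and 0.0524 CPM in vector, so no difference in IFNB1 was detectable at this depth. Of 9 tested receptor and JAK genes, 2 were higher in p65 2CS than in vector (median 0.11) and 3 in p65 WT than in vector (median 0.12), with none lower, and 2 were higher and 2 lower in p65 2CS than in p65 WT (median -0.03). Beside these counts stand 23.4%, 28.8% and 31.2% of all genes called. Those against vector were near that background, of which 12.1% and 16.4% of all genes were called higher for p65 2CS and p65 WT. IFNGR2, a chain of the interferon-γ receptor, averaged 29.1, 42.2 and 28.5 CPM in p65 2CS, p65 WT and vector and was lower in p65 2CS than in p65 WT (log2 -0.54 ± 0.06, adjusted p = 7.0e-09). JAK1, which signals from all interferon receptors, averaged 90.9, 109 and 81.7 CPM (-0.26 ± 0.04 between p65 2CS and p65 WT, adjusted p = 2.2e-06). The receptor genes IFNLR1 (0.33 ± 0.11, adjusted p = 0.018) and IFNGR1 (0.17 ± 0.07, adjusted p = 0.041) were higher in p65 2CS than in p65 WT. The IFNLR1 call was lost without p65 2CS replicate 8 (0.27) or p65 WT replicate 4 (0.23), and the IFNGR1 call without p65 2CS replicate 7 (0.12) or p65 WT replicate 4 (0.16), 5 (0.17) or 6 (0.19).

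Of 8 tested genes linked to turnover of the family's proteins, 1 was higher and 2 lower in p65 2CS than in vector, 1 was higher and 1 lower in p65 WT than in vector, and 2 were higher and 1 lower in p65 2CS than in p65 WT, with medians of 0.00, 0.02 and 0.02. In the same order, 23.4%, 28.8% and 31.2% of all genes were called. With so few genes, each count is near that background. TRIM21, a ubiquitin ligase reported to act on several of the family, averaged 9.58, 12.9 and 9.84 CPM in p65 2CS, p65 WT and vector and was lower in p65 2CS than in p65 WT (log2 -0.43 ± 0.11, adjusted p = 0.0016).

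Genes often named as targets of IRF1 include antigen-presentation and guanylate-binding-protein genes. Of 12 tested, 2 were higher and 1 lower in p65 2CS than in vector (median 0.11), 6 were higher and 0 lower in p65 WT than in vector (median 0.53), and 1 was higher and 6 lower in p65 2CS than in p65 WT (median -0.53). Over all genes 23.4%, 28.8% and 31.2% were called. The count in p65 2CS against vector was near its share. TAP1, the peptide transporter of antigen presentation, averaged 46.5 ± 3.8 CPM in p65 2CS, 85.6 ± 5.4 CPM in p65 WT and 26.8 ± 1.2 CPM in vector (SD, n = 3 each), so its group order was that of IRF1. GBP3, a guanylate-binding protein, averaged 0.192, 2.17 and 0.224 CPM, a log2 fold of -3.43 ± 0.43 between p65 2CS and p65 WT (adjusted p = 2.5e-08). GBP1 averaged 1.04, 2.70 and 1.32 CPM (-1.36 ± 0.27, adjusted p = 1.2e-04), and PSMB9, an immunoproteasome subunit, was higher than vector with both forms at 1.28, 1.57 and 0.540 CPM. CIITA, the master regulator of MHC class II genes, averaged 2.39, 4.35 and 3.73 CPM; it was lower in p65 2CS than in p65 WT (-0.88 ± 0.20, adjusted p = 7.1e-04) and than in vector (-0.66 ± 0.20, adjusted p = 0.015), and the call against vector was lost without p65 2CS replicate 8 (-0.54) or vector replicate 1 (-0.60).

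Of 27 tested genes tied to ISGF3, the complex that holds IRF9, 7 were higher and 1 lower in p65 2CS than in vector (median 0.07), 9 were higher and 1 lower in p65 WT than in vector (median 0.19), and 0 were higher and 9 lower in p65 2CS than in p65 WT (median -0.14). That is 9 of 27 called, near the 31.2% of all genes called in that comparison. All 9 were lower in p65 2CS, where 17.9% of all genes were called lower and 13.4% higher. CXCL10, a chemokine that NF-κB also drives, had 98 counts over p65 2CS, 249 over p65 WT and 0 over vector, which made it at least 30.5-fold and at least 99.4-fold higher than vector on the 3-count floor. IFIT1 averaged 3.87, 7.03 and 1.94 CPM in p65 2CS, p65 WT and vector (log2 -0.87 ± 0.17 between p65 2CS and p65 WT, adjusted p = 1.0e-04), and PARP14 averaged 14.9, 24.0 and 11.9 CPM (-0.69 ± 0.09, adjusted p = 2.1e-08). OAS3, which makes the activator of RNase L, averaged 43.1, 57.2 and 27.8 CPM in the same groups. IFIT2 and MX1 were among the genes of the list with their highest means in p65 2CS, but neither was called against p65 WT. IFIT2 averaged 1.12, 0.754 and 0.241 CPM (log2 2.16 ± 0.46 for p65 2CS against vector, adjusted p = 4.2e-04). MX1 averaged 2.80, 1.94 and 1.68 CPM (0.73 ± 0.25, adjusted p = 0.031), a call lost without p65 2CS replicate 7 (0.67) or 9 (0.70) or vector replicate 2 (0.45) or 3 (0.78). Which factor acts on a gene was not measured.

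**Figure D4:**
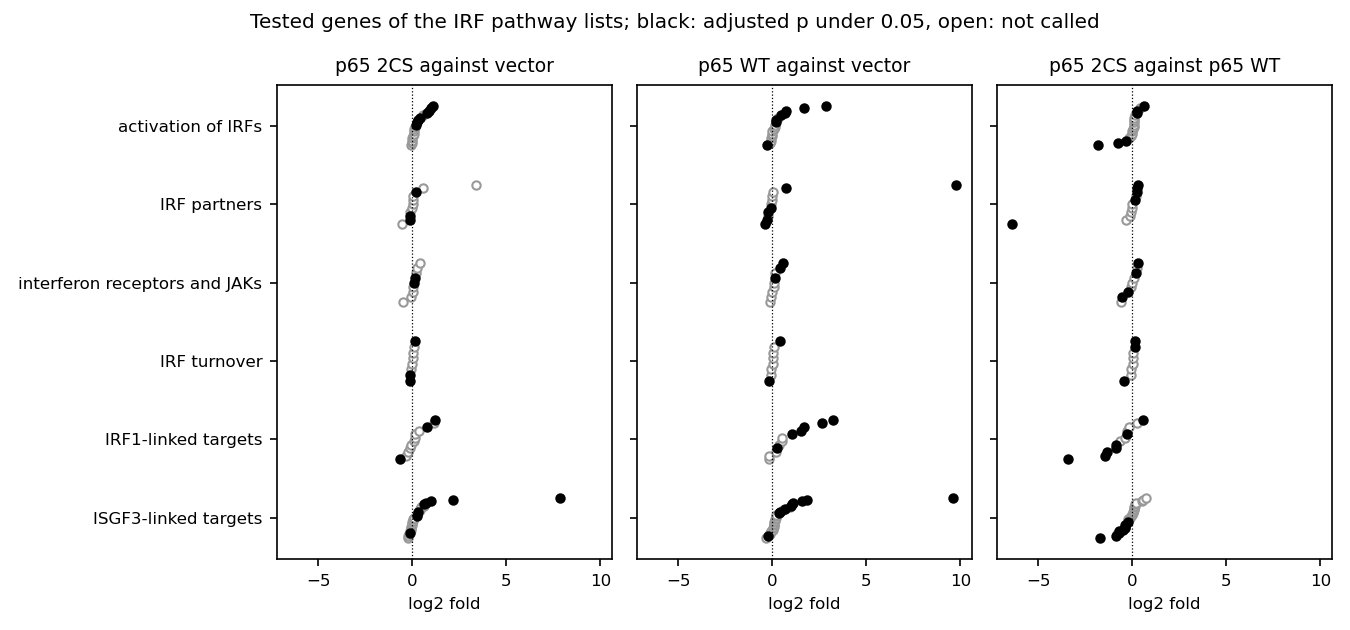
Log2 fold of each tested gene of 6 pathway lists (points, spread vertically by rank for legibility) in the 3 comparisons, black where the adjusted p was under 0.05 and open where not. The points farthest right in p65 WT against vector are BATF and CXCL10, each at 0 counts in vector, so their plotted fitted folds depend on the prior count, and BATF is also farthest left in p65 2CS against p65 WT, at -6.38.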

How the data were processed

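The deposited file holds whole-number counts of reads per gene for 9 libraries, not normalized by the authors. The submitters' processing notes name HISAT2 2.0.5 for these data. How reads were counted, the strand setting and the build are not stated in what was used here. Positions, strands and symbols of all 58735 genes equal those of GENCODE release 29 on GRCh38. The members and gene lists were chosen with earlier results of these data known.

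Genes were filtered with edgeR 4.0.16 (filterByExpr, minimum count 10), scaled by TMM and fitted by its quasi-likelihood model in R 4.3.3, all 9 libraries together with a mean per group. P-values were adjusted by Benjamini-Hochberg over the 18195 genes tested, and a gene was called at an adjusted p under 0.05. SE is the log2 fold divided by the root of F, and CPM uses TMM-scaled totals. Replicate pairs differed by 1.88 to 2.53 times the counting noise (chi-square per degree of freedom), so none was treated as a repeated library. The fit was tested on simulated data.

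Named genes are RELA, the 8 genes of the family, up to 4 called genes per list and comparison with the largest log2 fold and a mean of at least 1 CPM, TBK1, IKBKE, STAT2 and IFNB1, genes that overlap a member or lie within 100 kb of IRF1, and the 4 most alike genes for IRF1 and IRF8; SPI1 and the single markers were picked after their values were seen. Not every gene under this rule is described. Alternatives were other filters, DESeq2 1.42.0 size factors and its Wald test, library totals with and without RELA, fits of the 2 groups compared and leaving out each library.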

Additional observations from a re-analysis of the deposited data

Results flagged for a closer look

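RBCK1 encodes HOIL-1, a subunit of the linear ubiquitin ligase, and was listed for turnover of IRF3. It averaged 106 ± 2.2 CPM in p65 2CS, 97.5 ± 1.2 CPM in p65 WT and 102 ± 2.2 CPM in vector (SD, n = 3 each). It is listed here because all p65 2CS libraries lay above all vector libraries while all p65 WT libraries lay below them. The direct log2 fold of p65 2CS against p65 WT was 0.12 (adjusted p = 0.011, edgeR's quasi-likelihood test), and neither group was called against vector (0.06 and -0.06, adjusted p = 0.25 each).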

How the results depend on the processing

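Total counts of called genes, of called IRF genes and of called pathway genes, both directions together, stayed within 1.5 times those reported under all 7 other settings and all 9 fits without a library. Counts in a single direction moved more: p65 WT against vector had 2268 lower, against 3642 on library totals, and p65 2CS against p65 WT had 2431 higher, against 3790 on totals without RELA. For pathway genes these were 7 against 13 and 12 against 20. The called IRF genes kept their calls and directions in each of these 16 alternatives. Over them, p65 2CS against p65 WT ranged from -0.94 to -0.88 for IRF1, from -0.50 to -0.38 for IRF3 and from -2.29 to -1.64 for IRF8. IRF4 had no value in 2 alternatives and IRF9 none in 1, where they did not pass the filter. Directions turned only for values that were not called, and the cause was not tested. On library totals without RELA, IRF5 (0.00821) and STAT2 (0.0176) turned between p65 2CS and p65 WT. For p65 WT against vector, TBK1 came to -0.0369 on library totals and -0.0241 on totals without RELA, and STAT2 to 0.00381 with no filter, 0.00916 with DESeq2 size factors, 0.00902 with the DESeq2 Wald test and 0.00996 in the 2 groups alone. Leaving out single libraries, p65 2CS against vector ranged from -0.13 to 0.94 for IRF4 and from -0.0776 to 0.0135 for STAT2. Then p65 WT against vector ranged from -0.96 to 0.12 for IRF4, from -0.0503 to 0.0293 for STAT2 and from -0.0193 to 0.0242 for TBK1. Likewise p65 2CS against p65 WT ranged from -0.0496 to 0.128 for IRF2, from -0.26 to 0.20 for IRF5 and from -0.0729 to 0.0172 for STAT2. Among the other named genes, 53 values lost their call without 1 library and 17 under another setting. Depth limits IRF4, IRF8 and IRF9, at 2 to 84 counts a library, and IRF9 is also limited by the exon bases it shares with AL136295.5. No paired analysis was possible because the groups share no replicate number.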
